A study of Homo sapiens with 6 samples.

Results

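PBX2, the other PBX, MEIS and PKNOX homeobox genes, and XXbac-BPG300A18.13, a noncoding transcript annotated over the 3′ end of PBX2, were examined in Huh7 cells, an established human hepatoma cell line. The 9 genes were chosen by symbol from the 50868 genes of the table. PBX2 and XXbac-BPG300A18.13 had been picked because the first was higher and the second lower with the circular RNA, so their differences between groups are given as descriptions without a test. In 3 libraries the cells carried a plasmid for hsa_circ_0098181, a circular RNA made from exons of SOX5, and in the other 3 they carried the control plasmid. Both plasmids were delivered with a lipid reagent and total RNA was taken after 48 hours, so all 6 libraries share one cell line, transient transfection and a plasmid load. The labels do not say whether replicates were separate cultures, and p-values therefore measure only the spread between these samples, which may be technical.

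TALE homeobox proteins are transcription factors whose homeodomain carries a short extra loop of amino acids. PBX proteins bind DNA together with HOX proteins, and MEIS and PKNOX proteins bind PBX proteins, help to keep them in the nucleus and form complexes with them on DNA. The family is best known for patterning the embryo and for roles in leukaemia. PBX2 itself is a PBX paralog that is expressed in many tissues.

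Library totals ran from 11130902 to 14138262 counts. SOX5, the host gene of the circular RNA, was at 2104 ± 258.3 CPM (counts scaled to a common library size, with TMM factors) with the plasmid against 35.83 ± 5.41 CPM in controls (SD, n = 3 each), in the direction of the labels. The summed level of 10 hepatocyte genes was 31620 to 34340 CPM with the circular RNA and 30720 to 36630 CPM in controls. The 10 markers of other cell types summed to 81.64 to 82.54 and 72.66 to 87.3 CPM, most of it from PECAM1. PTPRC, CD68, COL1A1, COL1A2 and COL3A1 also had counts in every library, from 2 for COL1A1 to 144 for COL1A2. ACTA2 and DES had at most 6 in any, KRT5 was at 0 counts in every library and VWF at 0 in all but 1. Mitochondrial genes took 9.295% of the counts in control replicate 1 and between 6.322 and 7.043% in the other 5 libraries. Across all 15055 genes tested, edgeR's quasi-likelihood test called 6, or 0.0399%, at a Benjamini-Hochberg adjusted p under 0.05.

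PBX2 (ENSG00000204304) lies on the minus strand of chromosome 6 in GRCh38, at chr6:32184741-32190186, and its mRNA of 3205 bases has 9 exons. Its 3′ UTR of 1641 bases, chr6:32184741-32186381, lies within the last exon of 1734 bases. XXbac-BPG300A18.13 (ENSG00000273333, AL662884.1 in GENCODE 29) is transcribed from the same strand at chr6:32184733-32185882 and is of the annotated type 3prime_overlapping_ncRNA. Its 2 exons, of 559 and 103 bases, flank an intron of 488 bases. Of its 662 exon bases, 654, or 98.79%, are also exon bases of PBX2, all in the 3′ UTR, and 8 lie past the annotated end of PBX2. These shared bases make up 20.41% of the PBX2 mRNA.

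**Figure D1:**
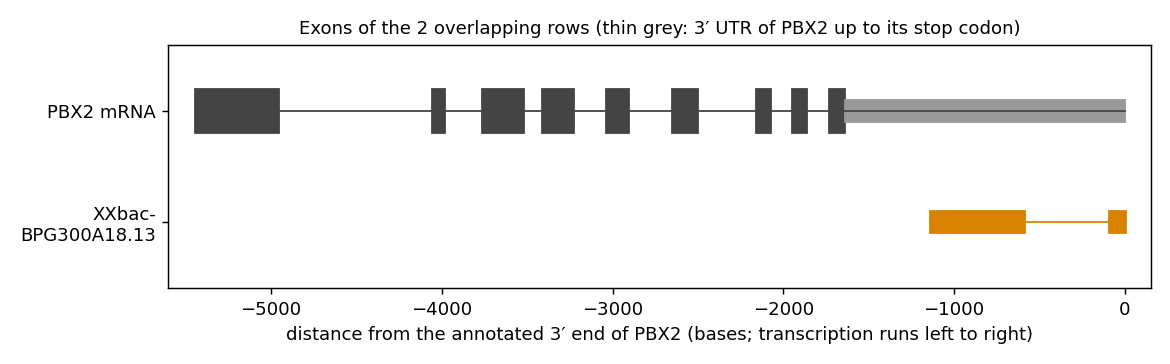
Exon maps of the PBX2 mRNA (top) and XXbac-BPG300A18.13 (bottom), drawn to scale as distance in bases from the annotated 3′ end of PBX2, with thick boxes for PBX2 exons up to the stop codon, thin grey for its 3′ UTR and orange for exons of the noncoding transcript. Both orange exons lie under the grey 3′ UTR, apart from 8 bases at the far right.

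Apart from those 8 bases, the sequence that sets the noncoding transcript apart from the PBX2 mRNA is its splice junction. The stretches of 30 bases below, from GENCODE 29 transcripts in mRNA sense on the minus strand, show why the edges matter, with capitals for the 15 bases after each edge. The first crosses the junction, with its outer bases at chr6:32184821-32185338, the second is the unspliced upstream edge at chr6:32185309-32185338, and the third is the unspliced downstream edge at chr6:32184821-32184850.
Junction in XXbac-BPG300A18.13: gcatttgatgtggagGCATGGGCCGGGGGC
Upstream edge in PBX2: gcatttgatgtggagGCAGTGAAGGGCTTG
Downstream edge in PBX2: gtgggggggtgggagGCATGGGCCGGGGGC
The intron begins with GC and ends with AG. 7 bases, GGAGGCA, are identical at both edges, so the letters alone do not place the junction at 1 base within them. A read from inside either exon matches both genes letter for letter. The counting tool, its handling of strand and its treatment of reads that match overlapping genes are not given in the sources used here.

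PBX2 had 731, 736 and 713 counts in the 3 overexpression libraries and 337, 325 and 360 in the 3 control libraries. On the library-scaled measure these were 51.75, 52.52 and 57.61 CPM against 31.1, 27.68 and 29.62 CPM. Every overexpression library was above every control library. The means were 53.96 ± 3.183 and 29.47 ± 1.717 CPM (SD, n = 3 each). The fold was 1.831, or 0.87 on the log2 scale (SE 0.10). PBX2 was one of the 0.0266% of genes called higher by edgeR and of the 6.4% whose groups did not overlap with the higher values under the circular RNA, and XXbac-BPG300A18.13 was one of the 0.0133% called lower, but since this contrast chose them nothing is read from that. Bulk RNA cannot tell a change in RNA per cell from a change in the number of cells that hold it.

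XXbac-BPG300A18.13 had 1 count in each overexpression library and 106, 122 and 90 counts in the controls. The control libraries were at 9.782, 10.39 and 7.406 CPM, a mean of 9.192 ± 1.577 CPM (SD, n = 3). The transcript was thus near 0 in one whole group and well counted in the other. Set against a floor of 3 counts per library in the overexpression group, the control mean was 41.2-fold higher. Each of those libraries held 1 count, for which a floor of 3 is not a strict upper limit. The spread of the controls is not included, so 41.2 is not a lower bound, and the floor covers counting error only. A split of this kind, with at most 3 counts in every library of one group and at least 50 in every library of the other, was seen in 1 of the 50868 genes, or 0.00197%, which was this one. The pattern was drawn from the values that chose the transcript, so its rarity is a description and nothing is read from it.

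Because the rows share bases, their counts were also added. XXbac-BPG300A18.13 held 23.93% of the counts of both rows in control replicate 1 (exact Clopper-Pearson 95% interval 20.03 to 28.18%) and 27.29% in control replicate 2 (23.21 to 31.68%). In control replicate 3 it held 90 of 450 counts, with an interval of 16.4 to 24.0%. In the overexpression libraries its share was 0.1366, 0.1357 and 0.1401%, with no interval reaching above 0.7778%. Per kilobase of merged annotated exon, the noncoding transcript was at 13.89 ± 2.382 CPM in controls, above PBX2 at 6.783 ± 0.395 CPM (SD, n = 3 each).

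The sum of both rows was 732, 737 and 714 counts with the circular RNA and 443, 447 and 450 counts in controls. In scaled units the means were 54.03 ± 3.19 and 38.66 ± 1.992 CPM (SD, n = 3 each). The fold of the sum was 1.398, or 0.48 on the log2 scale (SE 0.10). The groups did not overlap in the sum either, as was so in this direction for 6.4% of all genes tested. The sum holds the PBX2 counts, which were chosen on this contrast, so nothing is read from that. The difference of PBX2 alone was 24.49 CPM, and the noncoding row held 9.192 CPM in controls. Both values come from the contrast that chose the pair. Whether reads moved between the 2 rows was not tested, since the table holds no reads.

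**Figure D2:**
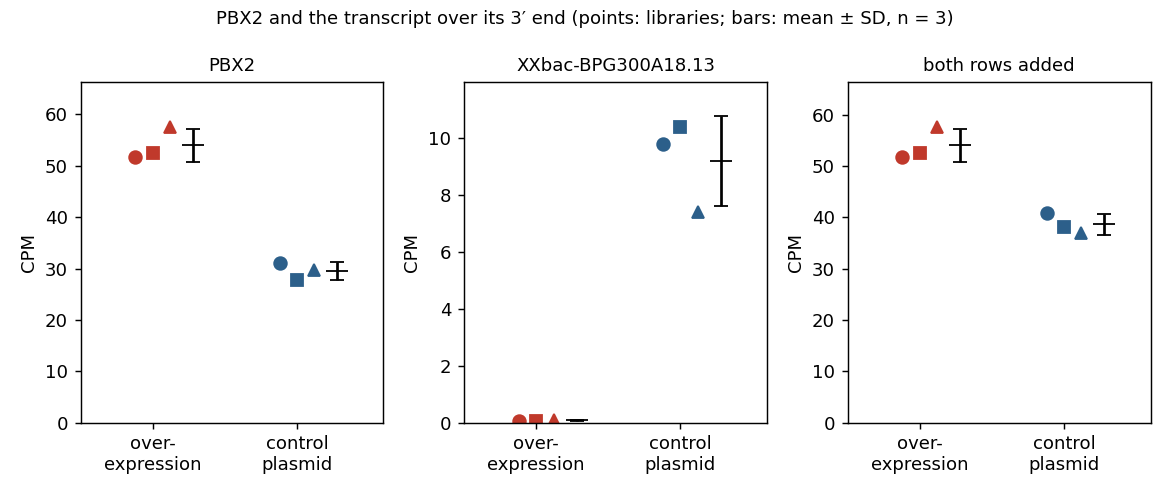
CPM of PBX2, XXbac-BPG300A18.13 and both rows added, by group, with a point for each library (circle, square and triangle for replicates 1, 2 and 3) and bars for mean ± SD, n = 3; each vertical axis starts at 0. PBX2 averaged 53.96 CPM with the circular RNA and 29.47 CPM in controls, XXbac-BPG300A18.13 was near 0 and at 9.192 CPM, and the sum was at 54.03 and 38.66 CPM.

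Other transcripts of the same annotated type were set beside this pair, a comparison chosen after values had been seen. The table held 32 genes of the type 3prime_overlapping_ncRNA, and 8 passed the filter on low counts. RP11-311C24.1, all of whose exon bases lie in exons of NFAT5, had 248, 1 and 1 counts with the circular RNA and 245, 27 and 1 in controls. This transcript went from near 0 to over 200 counts inside each group. RP11-473I1.9, all within exons of C16orf72, had 245, 17 and 26 counts against 181, 19 and 48, also with replicate 1 far above the other libraries of its group. The sums of the overlapping rows differed between these pairs. With C16orf72, RP11-473I1.9 added up to between 75.75 and 81.05 CPM over all 6 libraries. With NFAT5, RP11-311C24.1 added up to 88.92, 37.39 and 46.86 CPM with the circular RNA and 125.8, 145.1 and 52.33 CPM in controls, so that sum was uneven within both groups. RP11-373L24.1, within REL, had 64, 146 and 116 counts against 215, 227 and 215, and its groups did not overlap, as was so for 12.9% of all genes tested. Its sum with REL ran from 21.17 to 45.31 CPM, also without overlap between groups. Its log2 fold change of -1.23 had an edgeR adjusted p of 0.797.

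**Figure D3:**
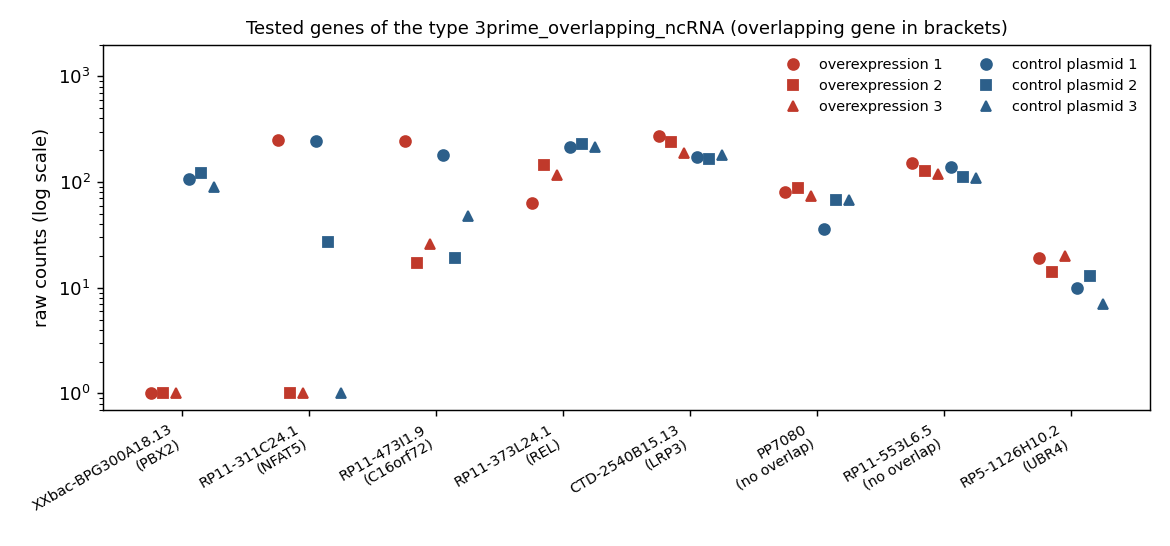
Raw counts (log scale) of the 8 tested genes of the type 3prime_overlapping_ncRNA in each library, red for overexpression and blue for control plasmid. The overlapping gene is in brackets for 6 of them. PP7080 and RP11-553L6.5 share no exon base with another gene of the table on the same strand. XXbac-BPG300A18.13 is at 1 count in all 3 overexpression libraries and at 90 to 122 in controls, whereas RP11-311C24.1 spans 1 to 248 counts within a group.

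Such jumps within a group were counted over all genes tested, as at most 3 counts in one library and at least 50 in another library of the same group. They were seen in 15 of 15055 genes, or 0.0996%. Among the 163 genes with at least 90% of their exon bases in another gene on the same strand there were 12, or 7.36%. Among the 12828 genes that share no exon base with another gene of the table on the same strand there was 1, or 0.0078%. XXbac-BPG300A18.13 belongs to the class with at least 90% shared and was not among the genes that jumped, since its counts were alike within each group. It had been picked for its difference between the groups, so nothing is read from the absence of a jump.

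A second source of shared sequence is PBX2P1, a processed pseudogene of PBX2. Of the 3175 windows of 31 bases in the PBX2 mRNA, 810, or 25.51%, occur in it, all between mRNA positions 315 and 1562. The bases shared with XXbac-BPG300A18.13 start at mRNA position 2064, so none of those windows reaches them. PBX2P1 had 42, 56 and 52 counts with the circular RNA and 46, 50 and 45 in controls, with groups that overlapped and an edgeR adjusted p of 0.905 for a log2 fold change of -0.13 (95% interval -0.62 to 0.36). PBX2 counts from the coding region remain uncertain to the extent that reads were shared with this copy.

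The study followed miR-18a-3p as a partner of the circular RNA, and its seed, bases 2 to 8 in capitals, is shown to let the PBX2 3′ UTR be searched for its complement (RefSeq sequence).
miR-18a-3p: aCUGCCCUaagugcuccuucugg
The matching site, AGGGCAG on the transcript strand, occurs 0 times in the 1641 bases of the PBX2 3′ UTR, and 2379 of 12580 tested coding genes, or 18.9%, hold it. Only the 3′ UTR of each gene's longest coding transcript was searched. There, PBX3, PBX4, MEIS1, MEIS2, MEIS3 and PKNOX1 hold no match. PKNOX2, which had 0 counts in every library, holds 1, at chr11:125431876-125431882. A match here is a description of letters and not a functional site.

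Of the 7 other family members, 4 passed the filter on low counts: PBX3, MEIS1, MEIS2 and PKNOX1. None of the 4 was called by edgeR, against 0.0399% of all genes tested, none had an unadjusted p under 0.05 (5.5% of all genes), DESeq2 called 0 (0.102% of the genes it gave an adjusted p), and the groups overlapped in all 4. Their median log2 fold change was -0.02, and that of all genes tested was 0.0023.

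PBX3, a paralog of PBX2, was the most variable of the 4. Its 6 values were 12.53, 10.78 and 21.09 CPM with the circular RNA and 18.55, 16.27 and 10.04 CPM in controls. Overexpression replicate 3 was the highest library and control replicate 3 the lowest, so the groups overlapped over nearly their whole range. The log2 fold change was -0.02 with a 95% interval of -0.69 to 0.66 and an edgeR adjusted p of 0.993. At this spread a change of the size seen for the sum of PBX2 and its overlapping row would lie inside the interval.

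MEIS1 and MEIS2 encode binding partners of PBX proteins. MEIS1 was measured at 6.867, 7.422 and 6.545 CPM against 6.552, 7.154 and 7.488 CPM in controls. Its log2 fold change was -0.02, the 95% interval ran from -0.39 to 0.34, and the edgeR adjusted p was 0.980. MEIS2 was measured at 25.27, 24.98 and 25.21 CPM with the circular RNA and 28.61, 23.33 and 21.64 CPM in controls, so the overexpression libraries all lay within the control range. The log2 fold change of MEIS2 was 0.04, with an interval from -0.26 to 0.33 and an edgeR adjusted p of 0.958.

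PKNOX1, which also dimerises with PBX proteins, had 18.9, 16.56 and 17.53 CPM with the circular RNA and 21.59, 16.86 and 20.82 CPM in controls. Its log2 fold change was -0.16, the 95% interval ran from -0.47 to 0.14, and the edgeR adjusted p was 0.822. The groups overlapped. For MEIS1, MEIS2 and PKNOX1 the upper end of the interval was below the 0.48 of the summed PBX2 rows. That value has an SE of 0.10 of its own and comes from the contrast that chose PBX2. Nothing is therefore read from this comparison.

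MEIS3, another partner of PBX, was barely counted, with 4, 0 and 0 counts against 3, 1 and 5, and was not tested. PBX4 and PKNOX2 had 0 counts in all 6 libraries. A count of 0 allows up to 3 counts per library, which is 0.2124 to 0.2769 CPM at these depths. Expression below that was not detectable.

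Levels of different genes were compared as CPM per kilobase of merged exon. PBX2 was at 12.42 ± 0.733 with the circular RNA and 6.783 ± 0.395 in controls (SD, n = 3 each). PBX3 followed with a mean of 3.284 over the 6 libraries, then PKNOX1 with 2.455 and MEIS2 with 2.300. The ranges of these last members, 2.217 to 4.656, 2.172 to 2.834 and 2.004 to 2.649, overlapped on this measure. In the deposited FPKM they did not, with PBX3 at 1.608 to 3.425, PKNOX1 at 1.218 to 1.529 and MEIS2 at 0.8024 to 1.038. Whether their order was within the spread between libraries thus depended on the measure. MEIS1 was lower, at 0.599 to 0.685, and MEIS3 did not exceed 0.0803. The lowest PBX2 library, 6.371, was above the highest PBX3 library.

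**Figure D4:**
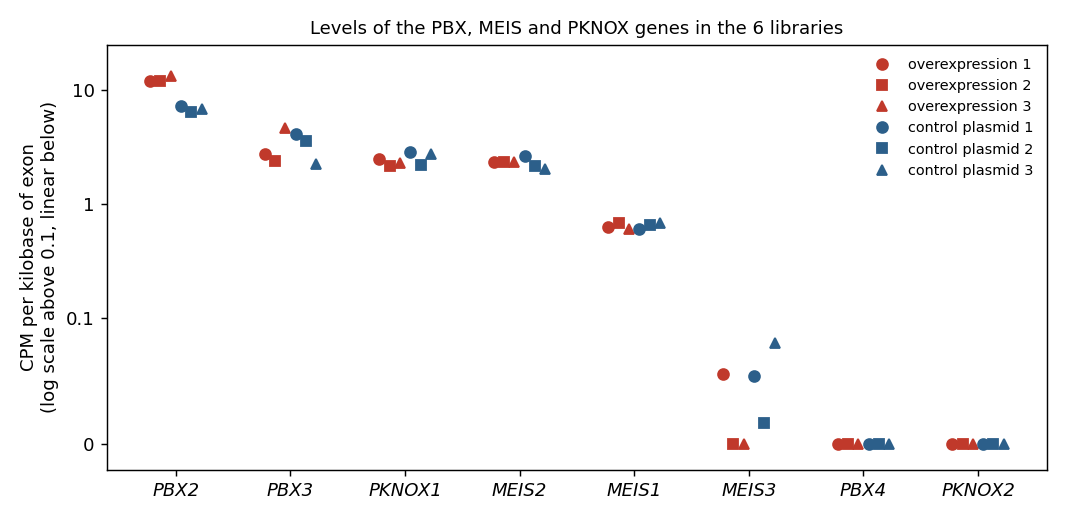
CPM per kilobase of merged exon for PBX2 and the other 7 family members in each library, red for overexpression and blue for control plasmid, on an axis that is logarithmic above 0.1 and linear below. PBX2 sits highest in both groups, PBX3, PKNOX1 and MEIS2 share a range around 2 to 5, and PBX4 and PKNOX2 are at 0.

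The remaining TALE genes are repressors of the TGIF group, Iroquois genes and MKX. Of the 9 listed, 5 were at 0 counts in all libraries (IRX1, IRX2, IRX4, IRX6 and MKX) and 4 were tested. None was called by edgeR or DESeq2 (0.0399% and 0.102% of all genes), and none had an unadjusted p under 0.05 (5.5% of all genes). TGIF1, a co-repressor of TGF-beta signalling, was at 58.88 ± 1.199 CPM with the circular RNA and 69.22 ± 17.31 CPM in controls (SD, n = 3 each), with control replicate 3 well above the other libraries. TGIF2 was at 26.46 ± 9.043 and 25.25 ± 7.857 CPM, and IRX3 at 2.431 ± 0.7812 and 2.345 ± 0.3777 CPM. IRX5 was the 1 gene of the 4 whose groups did not overlap, as in 12.9% of all genes tested, with 8, 8 and 9 counts against 13, 12 and 11. Its log2 fold change was -0.74, with a 95% interval of -1.51 to 0.03 and an edgeR adjusted p of 0.797.

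Of the 11 genes reported here for proteins that bind or act with TALE factors, EN1, EN2 and MYOD1 were at 0 counts in all libraries and 8 were tested. None was called by edgeR or DESeq2 (0.0399% and 0.102% of all genes), none had an unadjusted p under 0.05 (5.5%), and none had groups without overlap (12.9%). PBXIP1, which encodes a protein that binds PBX factors, was at 61.71 ± 14.93 and 57.38 ± 10.88 CPM (SD, n = 3 each) and had a log2 fold change of 0.10. HDAC1, a histone deacetylase, was at 217.1 ± 15.2 and 200.4 ± 4.756 CPM. NCOR1, a nuclear receptor co-repressor, had the log2 fold change farthest from 0, at -0.30 with a 95% interval of -0.64 to 0.04 and an edgeR adjusted p of 0.797. The median of the 8 was -0.10, with 2 above 0 and 6 below.

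**Figure D5:**
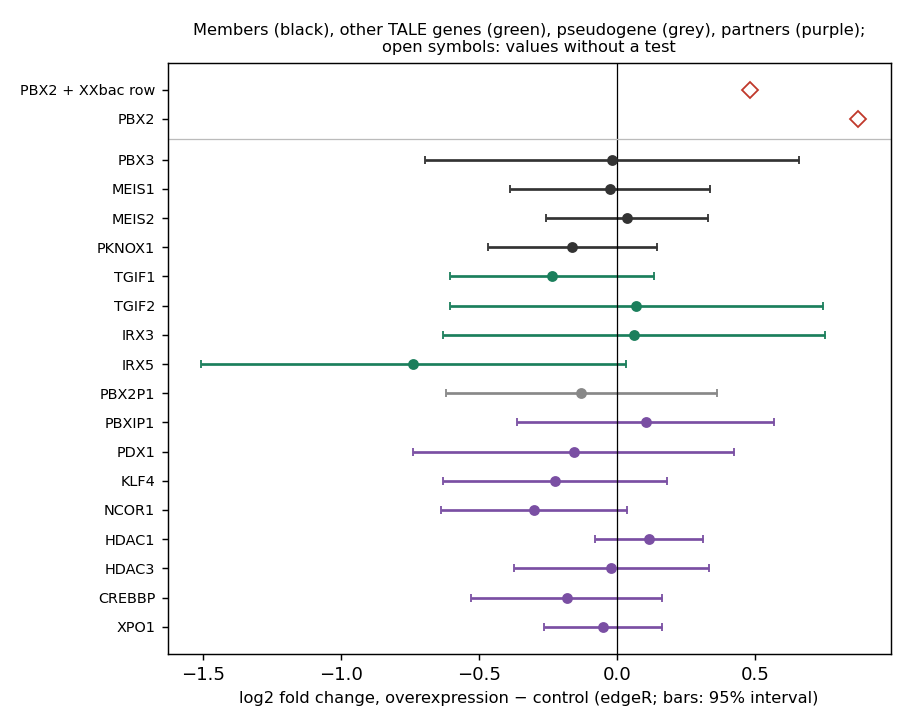
Log2 fold changes of overexpression against control from edgeR, with 95% intervals, for the tested family members (black), other TALE genes (green), PBX2P1 (grey) and partners (purple); open red symbols give PBX2 and the summed PBX2 and XXbac-BPG300A18.13 rows, which have no test. Every interval drawn includes 0, and the open symbols stand at 0.87 and 0.48.

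HOX proteins share DNA sites with PBX. Of the 38 HOX genes reported here, 14 were at 0 counts in every library and 17 were tested, all but HOXD1 from the HOXA and HOXC clusters. edgeR and DESeq2 called none of them (0.0399% and 0.102% of all genes), none had an unadjusted p under 0.05 (5.5%), and 2 (HOXA13 and HOXC8) had groups that did not overlap, against 12.9% of all genes tested. HOXC8 was at 2.723 ± 0.3543 CPM with the circular RNA and 3.929 ± 0.704 CPM in controls (SD, n = 3 each), and its log2 fold change was -0.52 with an edgeR adjusted p of 0.797. HOXA3 had 84, 98 and 287 counts against 263, 253 and 256, so that overexpression replicate 3 lay with the controls. Its log2 fold change was -0.90 with an edgeR adjusted p of 0.797, and without overexpression replicate 3 it was -1.78 with an edgeR adjusted p of 0.020.

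PBX2 sits in a gene-dense stretch of chromosome 6. Within 100 kb of it the table listed 15 other genes, of which 9 were tested; edgeR and DESeq2 called none (0.0399% and 0.102% of all genes), none had an unadjusted p under 0.05 (5.5%), and 1, ATF6B, had groups that did not overlap (12.9%). The median log2 fold change of the 9 was 0.05. AGER, the nearest gene past the 3′ end of PBX2, had 42, 38 and 30 counts with the circular RNA and 32, 40 and 26 in controls, a log2 fold change of -0.06. GPSM3, 0.58 kb from the 5′ end, had at most 9 counts in any library and was not tested. RNF5 and AGPAT1, a ubiquitin ligase and an acyltransferase of phospholipid synthesis, had log2 fold changes of 0.04 and 0.05. PPT2-EGFL8, a read-through transcript that overlaps PPT2 and EGFL8, was uneven within groups, with 153, 84 and 66 counts against 34, 97 and 16.

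The genes whose pattern over the 6 libraries was most like that of PBX2 were sought among 9952 genes with a mean of at least 10 CPM. Likeness was the root mean square distance between log2(CPM + 0.5) values, each centred on its gene's mean, and its median over those genes was 0.4574. The nearest were NAA30 at 0.1097, SUMO3 at 0.1169 and LYRM1 at 0.1389. NAA30, the catalytic subunit of an N-terminal acetyltransferase, was at 46.4 ± 3.175 and 28.07 ± 3.167 CPM (SD, n = 3 each). SUMO3, a small ubiquitin-like modifier, was at 121.8 ± 10.05 and 63.91 ± 4.94 CPM, and LYRM1 was at 27.41 ± 0.876 and 17.01 ± 3.036 CPM. These 3 were picked for their likeness, so their differences carry no test.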

How the data were processed

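RNA sequencing of Huh7 cells gave 6 libraries, grouped by their titles as circ_0098181 or control plasmid, 3 each. The authors deposited raw counts and FPKM for each gene in each library. The submitters' processing notes name TopHat2 2.0.9 and hg38; the counting tool and annotation release are not given in the sources used here. GENCODE 29 held 98.51% of the table's gene IDs, and 94.84% of those had the same coordinates, so GENCODE 29 exons and transcripts were used.

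Counts were tested with edgeR 4.0.16 in R 4.3.3 (filterByExpr, minimum count 10, TMM, quasi-likelihood test on group, two-sided), with Benjamini-Hochberg adjustment over 15055 genes, and the procedure was tested on simulated data. Deposited FPKM served for an alternative with limma 3.58.1 on log2(FPKM + 1) and where named above. DESeq2 1.42.0, RLE and upper-quartile normalization, 2 other filters, a replicate block, leaving out each library and summing both overlapping rows were the other alternatives. Library pairs within groups differed by a chi-square of 10.11 to 20.94 per degree of freedom, so none was a copy. The Clopper-Pearson intervals and the floor of 3 counts cover counting error only, whereas edgeR's 95% intervals include the spread between libraries.

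Members and lists were chosen with earlier results of these data known. Named genes were all members, the tested genes of each list, tested genes within 100 kb of PBX2, and the 3 genes nearest to PBX2 in pattern. 2 list genes are not reported here and were left out of the lists' counts, but stayed in the fit over all genes.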

Additional observations from a re-analysis of the deposited data

How the results depend on the processing

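PBX2 stayed higher with the circular RNA under every alternative run. Its log2 fold change was 0.78 with limma on log2(FPKM + 1), a scale that understates changes of low genes, and 0.48 with both overlapping rows summed. Leaving out 1 library at a time gave 0.82 to 0.91 for PBX2 and 0.43 to 0.53 for the sum. The control mean of XXbac-BPG300A18.13 over the floor of 3 counts then ran from 38.5-fold to 45.2-fold. The replicate numbers did not pair the samples (correlations of deviations -0.0292, -0.012 and -0.0308), and a replicate block gave 0.87 for PBX2. Calls among the 7 family members other than PBX2, other TALE genes, partners and PBX2 neighbours were 0 under all alternatives run. Not every gene was tested in each alternative. Among the genes left out by filters, limma did not test MEIS1, MEIS2, IRX3 and IRX5. The filter on a mean of at least 50 counts dropped IRX3 and IRX5. For HOX genes 1 was called, HOXA3, without overexpression replicate 3 (range 0 to 1).

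Of 535 values of 43 named genes under alternatives, 488 kept direction and call, 1 became called and 46 changed sign, in 22 genes with log2 fold changes of at most 0.19 in size; the cause was not tested. Without 1 library, log2 fold changes ran from -0.3555 to 0.1682 for PBX3, -0.0766 to 0.0201 for MEIS1, -0.0444 to 0.1634 for MEIS2, -0.2213 to 0.0111 for PBX2P1, -0.2006 to 0.2961 for TGIF2 and -0.1057 to 0.2987 for IRX3. Among partners they ran from -0.038 to 0.2901 for PBXIP1, -0.3695 to 0.0581 for PDX1 and -0.1142 to 0.1137 for HDAC3. Among neighbours they ran from -0.2318 to 0.093 for AGER, -0.0045 to 0.1011 for AGPAT1, -0.0537 to 0.4605 for EGFL8 and -0.0775 to 0.1455 for RNF5. Among HOX genes they ran from -0.1878 to 0.014 for HOXA9, -0.0792 to 0.0826 for HOXA11, -0.2487 to 0.4601 for HOXC4, -0.155 to 0.4754 for HOXC5, -0.0219 to 0.154 for HOXC6, -0.3221 to 0.084 for HOXC9, -0.026 to 0.1484 for HOXC10, -0.1969 to 0.2794 for HOXC11 and -0.3539 to 0.0385 for HOXD1. HOXA11 was at 0.0122 with upper-quartile normalization, 0.005 without the filter and 0.0126 with limma, and the replicate block gave 0.012 for HOXC4 and -0.0231 for HOXC11.

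With 3 libraries a group, intervals of the tested members were wide, and PBX4, PKNOX2 and MEIS3 were at or near the floor of these depths.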
